A study of Mus musculus with 2 samples.

Results

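The mammalian circadian clock was represented by 10 genes, Arntl, Clock, Per1, Per2, Per3, Cry1, Cry2, Nr1d1, Nr1d2 and Dbp, picked by symbol from the 32285 genes in the files. All 10 were listed. The data were 10x Genomics single-cell 3' RNA libraries of sorted mouse spleen NK cells, 1 library from mice under dietary restriction (DR) and 1 from control mice on a normal diet. The labels gave neither the length or degree of the restriction, nor genotype, strain, sex or age, nor the markers of the sort, the number of mice behind each library, or the time of day at which mice were fed and killed. With 1 library per group there was no replicate and no test, so every difference below is between these libraries, and the diet and the time of sampling cannot be told apart.

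The clock is a transcriptional feedback loop. ARNTL (also called BMAL1) and CLOCK form a dimer that binds E-box sequences and switches on the Per and Cry genes, whose proteins then block the dimer. In a second loop the same dimer drives Nr1d1 and Nr1d2, which encode the nuclear receptors REV-ERB alpha and beta, and these repress Arntl through ROR response elements (ROREs). Dbp encodes a PAR bZIP factor that carries the rhythm to output genes by binding D-boxes, and it is one of the transcripts that swing most strongly over the day in mouse tissues. When activators are low, Dbp, Nr1d and Per transcripts tend to be high, so their balance against Arntl and Clock is at most a rough reading of clock phase.

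The regulatory letters of this loop are shown here for the members whose levels are described most closely below. The sequences come from RefSeq promoter windows of the build GRCm38.p6, which held 9 of the 10 members; Per2 had no entry. Windows ran from 250 bases before to 50 bases after each annotated start. Both strands were searched for the E-box CACGTG, the D-box letters TTATGTAA and TTACGTAA, the RORE core letters TAGGTCA and TGGGTCA, and the cAMP response element TGACGTCA. Of 32851 promoter windows, 7.15% held the E-box, 1.06% a D-box, 6.45% a RORE core and 1.79% the cAMP response element. The 250 bases before the start follow for Per1 (the first of its 2 annotated starts), Per3, Cry1 and Dbp, with matches in capitals.
Per1, chr11:69098699-69098948, plus strand: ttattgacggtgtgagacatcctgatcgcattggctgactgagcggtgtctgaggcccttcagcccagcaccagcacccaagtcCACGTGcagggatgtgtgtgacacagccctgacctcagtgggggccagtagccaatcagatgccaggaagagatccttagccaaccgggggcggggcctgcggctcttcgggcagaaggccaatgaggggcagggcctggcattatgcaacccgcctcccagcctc
Per3, chr4:151044666-151044915, minus strand: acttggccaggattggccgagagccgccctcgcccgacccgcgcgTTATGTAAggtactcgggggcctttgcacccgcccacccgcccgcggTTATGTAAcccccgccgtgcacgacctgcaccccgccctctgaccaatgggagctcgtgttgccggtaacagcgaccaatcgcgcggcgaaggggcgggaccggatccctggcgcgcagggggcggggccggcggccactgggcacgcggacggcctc
Cry1, chr10:85185055-85185304, minus strand: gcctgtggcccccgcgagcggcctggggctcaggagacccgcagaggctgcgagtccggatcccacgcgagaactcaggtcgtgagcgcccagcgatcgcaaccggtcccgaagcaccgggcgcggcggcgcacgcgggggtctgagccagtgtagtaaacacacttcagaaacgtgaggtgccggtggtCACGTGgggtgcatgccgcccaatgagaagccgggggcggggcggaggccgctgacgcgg
Dbp, chr7:45704997-45705246, plus strand: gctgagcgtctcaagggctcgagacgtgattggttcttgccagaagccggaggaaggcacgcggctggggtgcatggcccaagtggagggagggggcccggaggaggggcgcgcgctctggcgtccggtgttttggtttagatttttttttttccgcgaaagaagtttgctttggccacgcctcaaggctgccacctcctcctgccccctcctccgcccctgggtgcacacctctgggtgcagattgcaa
The capitals mark 1 E-box in Per1 and 1 in Cry1, which begin 166 and 60 bases before the start, and 2 D-boxes in Per3, which begin 205 and 158 bases before it. The Dbp window held none of the letters searched, which says nothing of sites elsewhere in the gene. For Arntl, the RORE core began at base 31 after the second annotated start, and 30 bases around it are shown.
Arntl, chr7:113207530-113207559, plus strand: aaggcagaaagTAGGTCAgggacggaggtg
The windows of Clock, Cry2, Nr1d1 and Nr1d2 held no match to any of the letters searched.

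Single-cell depth limits what can be said about such weakly expressed genes. After filtering, 5785 DR and 5225 control cells were kept, with medians of 5782 and 7151.5 UMIs (unique molecules) per barcode before filtering. Clusters were named from marker genes, with the clock genes left out of the clustering. The NK-like class held 4417 DR and 4503 control cells. Smaller classes were ILC1-like (381 DR and 294 control cells), B-like (440 and 115) and T-like (303 and 4). The control cells are too few for a T-like comparison. Per 1000000 UMIs of the class, the 10 NK markers, among them Ncr1, Klrb1c and Eomes, summed to 26910 in DR and 29115 in control NK-like cells. They summed to 10546.5 and 11913 in ILC1-like, 302 and 361 in B-like, and 1367 in DR T-like cells. All 10 were detected in each of these classes, so their levels and not their detection set the classes apart. The libraries shared 13 barcode sequences. In NK-like cells the 10 clock genes together gave 2811 UMIs in the DR library and 3547 in the control library, and 56.5% of DR cells and 49.99% of control cells had none of them, beside median depths of 5488 and 7203 UMIs. Levels are therefore sums over all cells of a class, as CPM, the UMIs of a gene per 1000000 UMIs of the class, and their 95% exact intervals cover counting error only. In bulk sums of this kind fewer expressing cells and less RNA per cell cannot be told apart. Because 3' counting gives 1 molecule per transcript end, levels of different genes are not scaled by length, and capture can differ between genes.

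In NK-like cells the clock transcripts described had log2 ratios, DR over control, from -0.03 for Clock to 0.28 for Cry2. Genes averaging at least 5 CPM over both libraries were described, which took in 8 of the 10 members and left out Per2 and Nr1d1. A gene was called higher at a log2 ratio of at least 0.32, or lower at a log2 ratio of at most -0.32, with an interval that left out 0. None of the 8 members was called in either direction, against a background of 5.7% called higher and 9.25% called lower among 9010 genes. At such shares a count of 0 among 8 members does not set them apart from other genes. The members' median log2 ratio, DR over control, was 0.09, beside -0.04 over all genes described.

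Among the activators, Clock (chr5:76209868-76304792) gave 22.8 CPM in the DR library and 23.2 CPM in the control library, a log2 ratio of -0.03 with an interval of -0.18 to 0.12. Arntl (chr7:113207465-113314126) gave 15.5 CPM in DR and 13.7 CPM in control, a log2 ratio of 0.18 (interval -0.01 to 0.36). Both arms of the activating dimer were thus detected at similar levels in both libraries, and both intervals held 0.

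The Per and Cry repressors were not called either. Per1 (chr11:69095217-69109960) stood at 7.77 CPM in DR and 7.52 CPM in control. Per3 (chr4:151003652-151044665), the Per gene whose protein is least needed for the core rhythm in mice, stood at 7.26 and 6.89 CPM in DR and control. Per2 (chr1:91415982-91459324), the Per gene whose loss disrupts the mouse clock, was sparser, with 68 UMIs in DR and 78 in control, or 2.47 and 2.13 CPM. Cry1 (chr10:85131700-85185064) gave 9.92 CPM in DR and 9.21 CPM in control. None of these pairs differed by more than its counting interval. Cry2 (chr2:92403646-92434043) came closest to a call, with 8.46 CPM in DR and 6.98 CPM in control. Its ratio of 1.21 had an interval of 1.01 to 1.45 that left out 1 but missed the size needed for a call.

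Of the REV-ERB pair, Nr1d2 was readily detected and Nr1d1 barely. Nr1d2 (chr14:18204054-18239127) gave 495 UMIs in DR and 666 in control, or 18.0 and 18.1 CPM, a log2 ratio of -0.01 (interval -0.18 to 0.16). Nr1d1 (chr11:98767932-98775333) gave only 6 UMIs in DR and 5 in control among all NK-like cells, or 0.218 and 0.136 CPM. Its 3' end overlaps Thra on the opposite strand, a gene with 150 UMIs in DR and 140 in control NK-like cells, and strand use in counting is not given in the sources used here. The output factor Dbp (chr7:45705088-45710203) gave 9.73 CPM in DR and 8.72 CPM in control, a log2 ratio of 0.16 (interval -0.08 to 0.40). The 3' end of Dbp overlaps Sphk2 on the opposite strand, at 13.9 CPM in DR and 13.7 CPM in control, and that of Per3 lies inside Camta1 on the same strand, at 25.3 and 25.1 CPM, so reads of these pairs may not be fully separated.

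**Figure D1:**
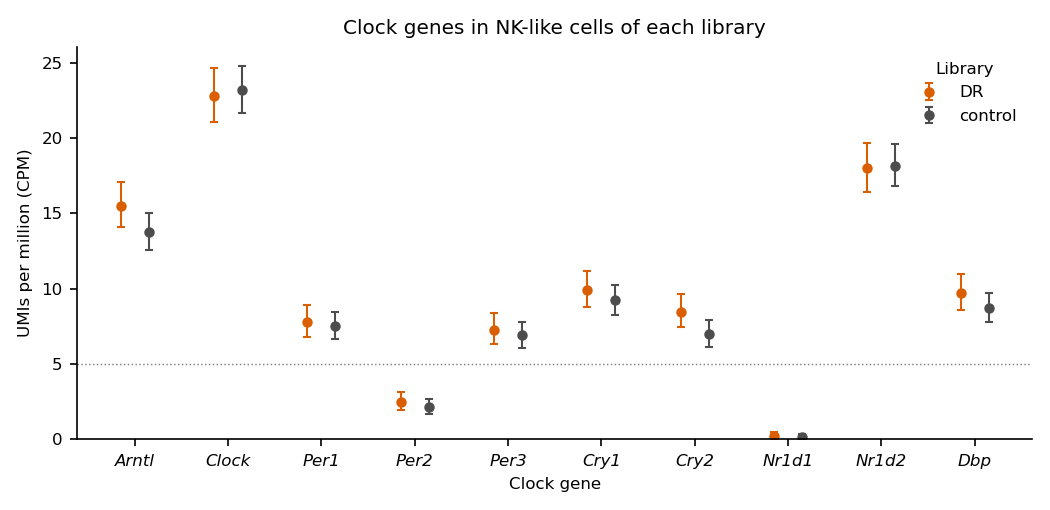
Level of each clock gene in NK-like cells, in CPM (linear axis), in the DR library (left, orange) and the control library (right, grey). Bars are 95% exact Poisson intervals and the dotted line marks 5 CPM. The intervals of DR and control overlap for every gene, and Nr1d1 lies near 0 in both.

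By summed CPM, Per3 and Nr1d2 were lower in immature-like than in mature-like NK cells within both libraries. The marker list of the immature stage included Cd27, Il7r and Tcf7, and that of the mature stage Itgam, Klrg1 and Zeb2. A stage name required 60% of its list, so a cluster need not carry every marker. In the DR library Per3 gave 4.18 CPM in immature-like and 10.9 CPM in mature-like cells, a log2 ratio of -1.39 (interval -1.87 to -0.93). In the control library it gave 3.77 CPM in immature-like and 10.5 CPM in mature-like cells, a log2 ratio of -1.48 (interval -1.96 to -1.02). The stages did not overlap in either library. Nr1d2 gave 15.6 CPM in immature-like and 21.9 CPM in mature-like cells of the DR library, a log2 ratio of -0.49 (interval -0.76 to -0.22). It gave 13.1 and 24.1 CPM in those of the control library, a log2 ratio of -0.88 (interval -1.14 to -0.62). So the direction of the Nr1d2 step was shared between the libraries. The intervals of its size overlapped, and a difference in size was not tested.

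Of 8 members described per library, immature-like over mature-like, 1 was called higher and 2 lower in the DR library, against a background of 8.48% and 17.2%, and 0 higher and 4 lower in the control library, against 9.74% and 21.1%. The further calls were seen in 1 library each. Dbp was higher in immature-like cells of the DR library, with 11.2 CPM against 8.41 CPM in mature-like cells. In the control library Cry1, with 7.60 against 10.6 CPM, and Cry2, with 5.90 against 8.08 CPM, were lower in immature-like cells. Arntl was nearly even between stages, at 16.7 CPM in immature-like and 14.96 CPM in mature-like cells of the DR library, and 13.6 and 14.1 CPM in those of the control library. Clock was likewise not called in either library. Cell depth moved with stage, with medians of 7038 and 4623 UMIs in immature-like and mature-like cells of the DR library and 9237.5 and 6334 in those of the control library, and its part in the stage differences was not tested. Thinning each cell to 2000 UMIs left 0.751% of immature-like and 2.07% of mature-like DR cells with a Per3 UMI, and 0.697% and 1.84% of control cells. Without thinning the shares were 2.94% and 4.303% in the DR library and 3.25% and 5.71% in the control library. Nr1d2 was less clear at equal depth. After thinning, 3.38% (exact interval 2.61 to 4.31) of immature-like and 3.96% (3.18 to 4.87) of mature-like DR cells had an Nr1d2 UMI, against 2.51% (1.76 to 3.46) and 4.18% (3.38 to 5.09) of control cells, so the intervals overlapped between stages in both libraries. Its unthinned shares in the DR library, 10.4% in immature-like and 9.19% in mature-like cells, ran against the CPM, and those in the control library were 10.7% and 12.9%.

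For Per3 the order held cluster by cluster, with some overlapping intervals. Of the NK-like clusters, those led by Cx3cr1 and Gpx8 and by Ly6c2 and Gm10522 formed the mature-like class, and different clusters held most of it in the libraries (511 and 1720 DR cells, 2025 and 270 control cells). Per3 stood at 14.1 CPM in DR and 9.86 CPM in control cells of the first, and at 9.78 CPM in DR and 17.9 CPM in control cells of the second. In each immature-like cluster it was lower within the same library. It gave 4.31 CPM in DR and 4.52 CPM in control cells of the cluster led by Cmya5 and Klra4, 3.78 and 2.92 CPM in that led by Socs2 and Thy1, and 4.69 and 2.57 CPM in that led by Batf3 and Cd3d. Nr1d2 was less even, with 20.03 CPM in DR and 10.4 CPM in control cells of the cluster led by Socs2 and Thy1. An unnamed cluster led by Cxcl10, Nr4a1 and Ccl4, genes of recent activation, also had little Per3, with 3.50 CPM in DR and 2.91 CPM in control cells. Nr1d2 stood at 5.60 CPM in DR and 11.6 CPM in control cells of the same cluster. In the immature-like cluster led by Batf3 and Cd3d it stood at 8.54 CPM in DR and 10.3 CPM in control cells. The other unnamed cluster, led by Cd55 and Cmah, had 39.7 CPM of Nr1d2 in DR and 23.6 CPM in control cells, and 18.1 and 8.83 CPM of Per3. Per1 in the cluster led by Cxcl10 stood at 8.40 CPM in DR and 12.5 CPM in control cells. Per1 is also known as an immediate early and glucocorticoid-induced gene. Of proliferating cells the DR library held 16, too few for levels, and the control library 64. These control cells gave few UMIs of some members: 6 of Nr1d2 (3.96 CPM, interval 1.45 to 8.63), 3 of Per3 (1.98 CPM), 2 of Per1 (1.32 CPM, interval 0.16 to 4.77), 1 of Per2 and 0 of Nr1d1. Other members gave more, with 22 UMIs of Clock (14.5 CPM), 21 of Arntl (13.9 CPM), 16 of Cry1 (10.6 CPM), 9 of Dbp (5.95 CPM) and 7 of Cry2 (4.62 CPM).

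**Figure D2:**
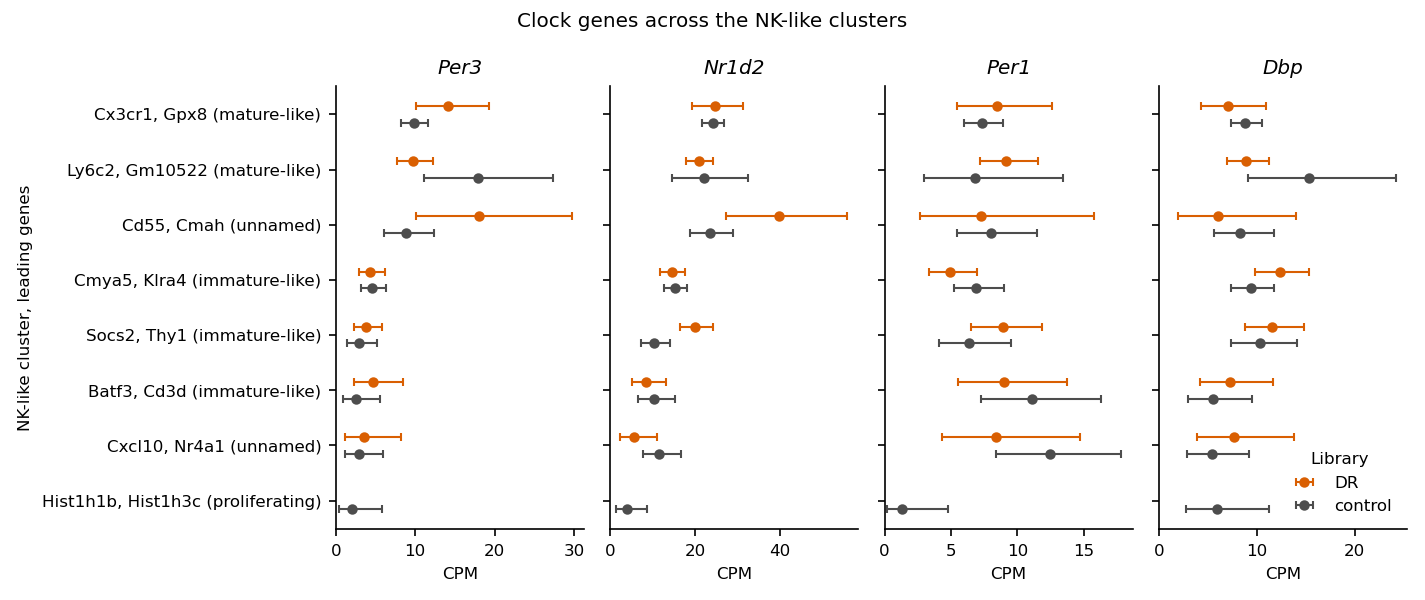
Levels of Per3, Nr1d2, Per1 and Dbp in the NK-like clusters (rows, named by their leading genes and stage) in CPM, with the DR library (orange) above the control library (grey). Bars are 95% exact Poisson intervals, and clusters with under 50 cells in a library are not drawn for it. Per3 lies at 9.78 CPM or more in both mature-like clusters and at 4.69 CPM or less in the immature-like ones.

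Between the libraries, the stages gave few calls. In immature-like NK cells 1 of 7 members described was called higher and 0 lower, with Per3 under the minimum, against a background of 6.29% higher and 6.82% lower. It was Cry2, with 8.50 CPM in DR and 5.90 CPM in control cells, a log2 ratio of 0.53 (interval 0.11 to 0.95). This call was lost with a finer clustering (Leiden resolution 1.0), where the log2 ratio was 0.32. In mature-like NK cells 0 of 8 members were called in either direction, against a background of 7.72% higher and 9.7% lower. Dbp there gave 8.41 CPM in DR and 9.35 CPM in control cells, and Nr1d2 21.9 and 24.1 CPM.

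Of the members described, Arntl was called higher in ILC1-like than in NK-like cells in both libraries. ILC1 are tissue-resident relatives of NK cells, and the ILC1-like cluster was led by Cxcr6, Tmem176b and Il7r. Arntl gave 27.7 CPM in ILC1-like and 15.5 CPM in NK-like cells of the DR library, and 25.4 and 13.7 CPM in those of the control library. The log2 ratios of 0.84 (interval 0.47 to 1.19) and 0.89 (0.50 to 1.26) were nearly equal. Of 8 members described in the DR library 2 were called higher and 0 lower in ILC1-like cells, against 16.4% and 9.76% of all genes, and of 7 in the control library 2 higher and 0 lower, against 15.9% and 11.2%. The other call was Dbp in the DR library, with 15.5 CPM in ILC1-like and 9.73 CPM in NK-like cells, and Cry1 in the control library, with 24.6 and 9.21 CPM. Nr1d1, under the minimum, gave 6 UMIs in 381 DR and 3 UMIs in 294 control ILC1-like cells. Its neighbour Thra stood at 20.7 CPM in DR and 11.2 CPM in control ILC1-like cells, above its NK-like levels of 5.45 and 3.82 CPM.

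Dbp and Cry1 differed between the libraries in ILC1-like cells. There 1 of 7 members described was called higher and 1 lower, against a background of 4.54% and 7.64%. Dbp gave 44 UMIs and 15.5 CPM in DR ILC1-like cells, and 19 UMIs and 7.32 CPM in control ILC1-like cells. Its log2 ratio was 1.08 (interval 0.27 to 1.94). Cry1 gave 40 UMIs and 14.0 CPM in DR cells, and 64 UMIs and 24.6 CPM in control cells, a log2 ratio of -0.81 (interval -1.42 to -0.22). The output factor and the repressor thus lay on opposite sides in the same cells, and the ratio of Cry1 to Dbp UMIs was 0.909 in DR and 3.37 in control ILC1-like cells. Per3, just under the minimum at a mean of 4.84 CPM, gave 21 UMIs in DR and 6 in control cells. Arntl itself, at 27.7 CPM in DR and 25.4 CPM in control cells, had an interval that held 0. Summed markers of T cells stood at 720 CPM in DR and 784 CPM in control ILC1-like cells. Most of this was Trbc2, at 595 CPM in DR and 668 CPM in control cells, a gene that NK-like cells also held at 234 and 264 CPM. Cd28 stood at 106 and 104 CPM, and Cd3e at only 3.16 and 0.77 CPM, so the sum does not measure T cells alone. All 8 markers were detected in DR, and 3 of 8, Cd8b1, Cd5 and Cd6, were at 0 in control. Cell cycle markers stood at 57.6 CPM in DR and 108 CPM in control cells, and their part in these differences was not tested. Without ILC1-like cells holding at least 2 UMIs of T cell markers, Dbp kept its call at a log2 ratio of 1.17 and Cry1 at -0.88.

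B-like cells differed from NK-like cells in Nr1d2 and Dbp in both libraries. Nr1d2 gave 8.81 CPM in B-like and 18.0 CPM in NK-like cells of the DR library, a log2 ratio of -1.03, and 7.98 and 18.1 CPM in those of the control library, a log2 ratio of -1.19. Dbp went the other way, with 13.6 CPM in B-like and 9.73 CPM in NK-like cells of the DR library and 16.0 and 8.72 CPM in those of the control library. Of 8 members described in the DR library, 1 was called higher and 2 lower in B-like cells, against 19.0% and 41.1% of all genes. Of 6 in the control library, 2 were called higher and 1 lower, against 17.0% and 36.8%. The remaining calls were a lower Cry2 in the DR library, at 5.03 CPM against 8.46 CPM in NK-like cells, and a higher Arntl in the control library, at 22.3 CPM against 13.7 CPM.

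Between the libraries 1 of 6 members described in B-like cells was called higher and 1 lower, against a background of 4.83% and 7.32%. Arntl gave 48 UMIs and 12.1 CPM in DR cells, and 28 UMIs and 22.3 CPM in control cells, a log2 ratio of -0.89 (interval -1.59 to -0.16). Per3 gave 33 UMIs in DR and 3 in control cells, a ratio of 3.47 with a wide interval of 1.09 to 17.7. These calls rested on 115 control cells and were fragile. With at most 5% mitochondrial UMIs both were lost, at log2 ratios of -0.73 for Arntl and 1.11 for Per3, and Per3 was also lost at Leiden resolution 1.0 (log2 ratio 0.71) and without cells rich in plasma cell markers (log2 ratio 1.39). The B-like cells were not alike in makeup. Summed plasma cell markers stood at 2426 CPM in DR and 789 CPM in control B-like cells with none of the 5 markers at 0, and cell cycle markers at 361 and 159 CPM, and beyond that alternative their part was not tested.

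T-like cells could be described in the DR library only. Dbp reached 21.1 CPM in them, its highest level of any class described, against 9.73 CPM in NK-like cells of that library, a log2 ratio of 1.11 (interval 0.67 to 1.54). Cry1 was also higher, at 17.3 CPM against 9.92 CPM in NK-like cells. Arntl (8.66 against 15.5 CPM), Clock (16.2 against 22.8 CPM) and Nr1d2 (7.53 against 18.0 CPM) were lower in T-like than in NK-like cells. That made 2 of 8 members higher and 3 lower, beside 13.3% and 38.9% of all genes.

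**Figure D3:**
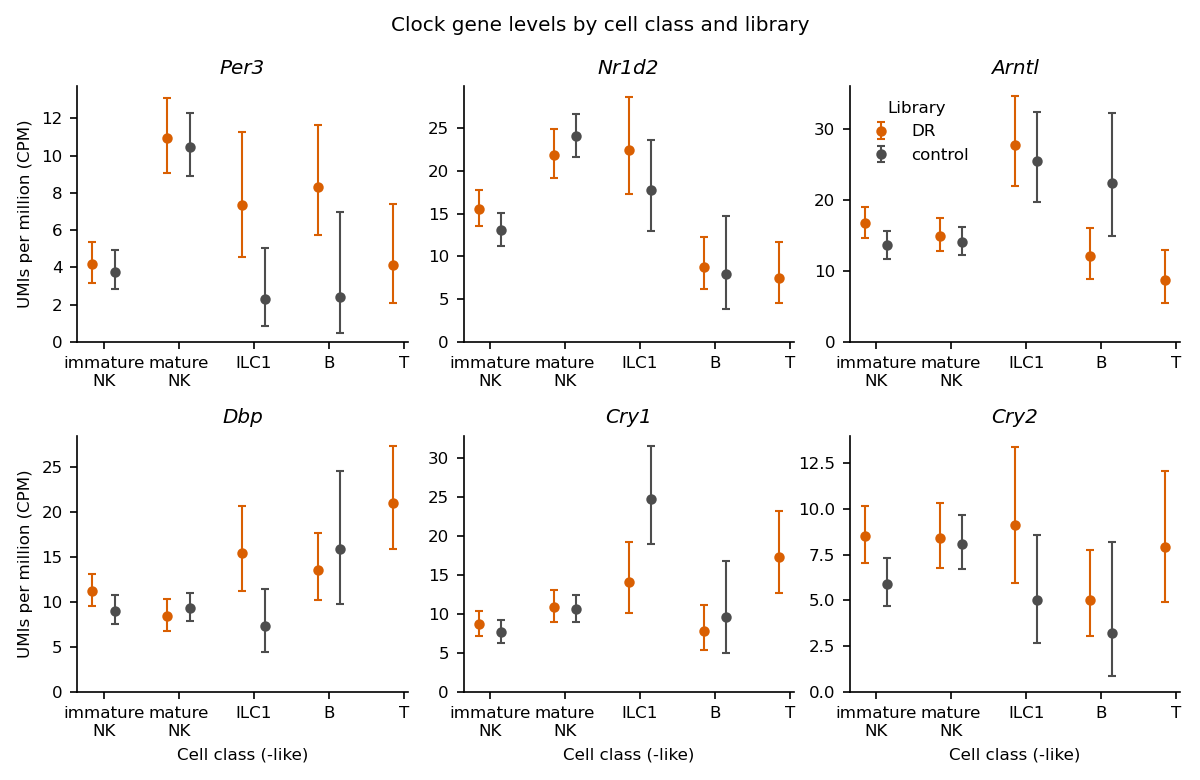
Levels of Per3, Nr1d2, Arntl, Dbp, Cry1 and Cry2 in each cell class, in CPM on linear axes that start at 0, in the DR library (left, orange) and the control library (right, grey). Bars are 95% exact Poisson intervals, and T-like cells are drawn for the DR library only. Per3 and Nr1d2 are higher in mature-like than in immature-like NK cells, Arntl is highest in ILC1-like cells, and Dbp in T-like cells.

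Across classes the order of levels could be read for some members only. Arntl ran from 27.7 CPM in ILC1-like over 16.7 in immature-like NK, 14.96 in mature-like NK and 12.1 in B-like to 8.66 in T-like cells of the DR library, where only ILC1-like and immature-like NK, of the neighbours in this order, had intervals that did not overlap. In the control library it ran from 25.4 CPM in ILC1-like over 22.3 in B-like to 14.1 in mature-like and 13.6 in immature-like NK cells, with overlapping intervals between neighbours. Over immature-like and mature-like NK, ILC1-like and B-like cells, with T-like cells in the DR library, Clock lay between 16.2 and 25.3 CPM in the DR library and between 22.2 and 28.7 CPM in the control library. Per1 over the same classes lay between 6.80 and 9.41 CPM in the DR library and between 2.39 and 7.46 CPM in the control library, the lowest value being 3 UMIs in B-like cells.

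**Figure D4:**
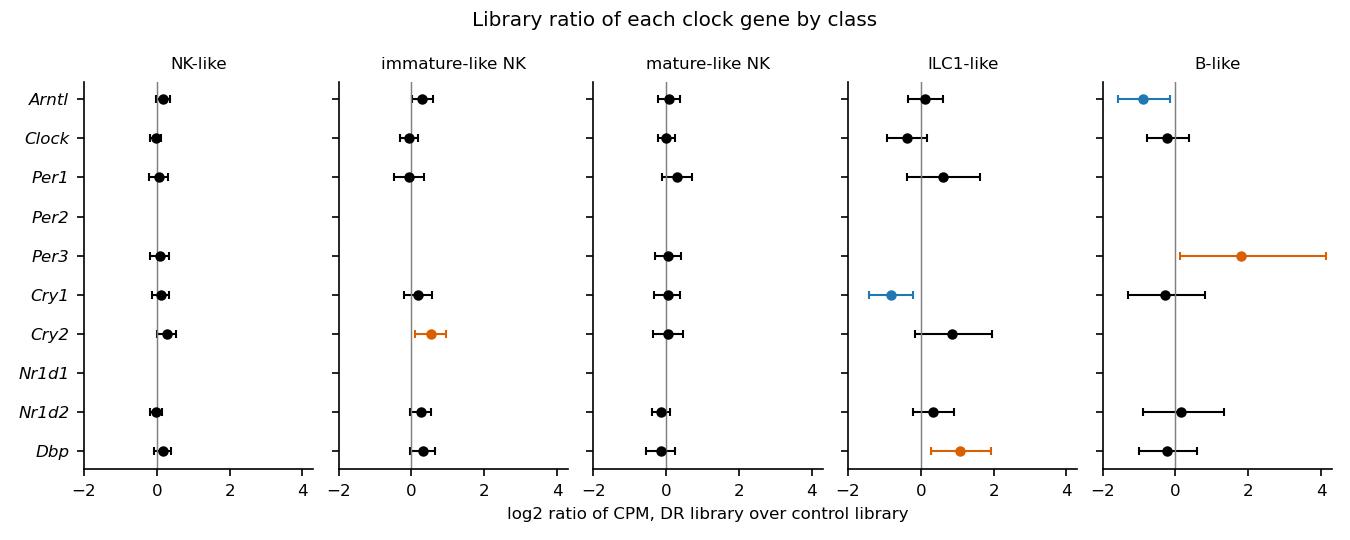
log2 ratio of CPM, DR library over control library, for each clock gene (rows) in NK-like cells, their immature-like and mature-like stages, ILC1-like and B-like cells. Bars are 95% exact intervals, genes under 5 CPM on average are left out, and coloured points were called higher (orange) or lower (blue). The NK-like ratios lie between -0.03 and 0.28, while calls appear for Cry2 in immature-like NK, Dbp and Cry1 in ILC1-like, and Per3 and Arntl in B-like cells.

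The balance of output to activator transcripts, which does not depend on scaling, was taken as a ratio for each class. Classes of the same library differed in it, from 1.09 in immature-like NK to 1.76 in T-like cells of the DR library. With the time of sampling not given, it cannot be read as phase alone. In NK-like cells the summed UMIs of Dbp, Nr1d1, Nr1d2, Per1, Per2 and Per3 were 1251 against 1054 of Arntl and Clock in the DR library, a ratio of 1.19, and 1598 against 1355 in the control library, a ratio of 1.18. The DR ratio was 1.01 times the control ratio, with an exact interval of 0.901 to 1.12. For Dbp over Arntl alone the DR value was 0.989 times the control value (interval 0.799 to 1.22). At this depth no shift of the balance was detectable in NK-like cells. In immature-like NK cells the ratio was 1.09 in DR and 1.01 in control, and in mature-like NK cells 1.30 in DR and 1.36 in control. Both pairs had intervals of the difference that held no change.

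In ILC1-like cells the output to activator ratio was 1.28 in DR and 0.718 in control, so that DR was 1.79 times control (interval 1.24 to 2.57). In B-like cells it was 1.15 in DR and 0.609 in control, so that DR was 1.89 times control (interval 1.17 to 3.07). Leaving out ILC1-like cells with T cell marker UMIs moved the log2 ratio of 0.84 to 0.63 with a lower bound at -0.0007, and a limit of 5% mitochondrial UMIs moved that of B-like cells, 0.92, to 0.55 with an interval that held 0. In T-like cells of the DR library the ratio was 1.76. That the ILC1-like or B-like values differ from the NK-like value was not tested, since cells of 1 library are not replicates.

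**Figure D5:**
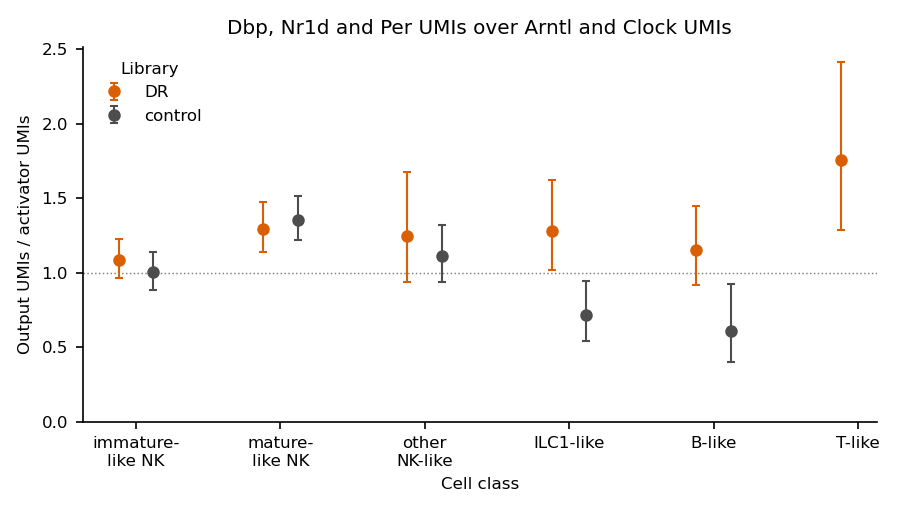
Summed UMIs of Dbp, Nr1d1, Nr1d2, Per1, Per2 and Per3 divided by those of Arntl and Clock, by cell class, in the DR library (left, orange) and the control library (right, grey). Bars are 95% exact intervals and the dotted line marks 1. DR and control lie close in the NK classes, whereas control lies below 1 and DR above 1 in ILC1-like and B-like cells.

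Other genes of the clock were read in NK-like cells with the same backgrounds of 5.7% higher and 9.25% lower. Stage and cycle markers moved with the library there, and their part in the list counts was not tested. The 10 immature NK markers summed to 1905 CPM in DR and 1284 CPM in control cells, the 10 mature NK markers to 3502 and 4501 CPM, and the 10 cell cycle markers to 174 and 465 CPM, with none at 0 in either library. Most of the immature difference came from Ctla2a, at 797 CPM in DR and 405 CPM in control cells. Against these sums, Kit (25.4 and 44.3 CPM) and Xcl1 (311 and 345 CPM) were lower in DR. Of the mature list, Ly6c2 (696 and 569 CPM) was higher in DR. Of 26 other genes of the clock machinery, 18 were described, 2 called higher and 1 lower. Their median log2 ratio was -0.06. The higher ones were Rora, the RORE-binding activator that competes with REV-ERB, at 22.2 CPM in DR and 10.5 CPM in control cells (log2 ratio 1.08), and Bhlhe41, an E-box repressor, at 6.90 and 3.19 CPM (1.11). The lower one was Ncor1, the corepressor through which REV-ERB acts, at 310.0 CPM in DR and 396 CPM in control cells (-0.35). Tipin, a partner of the Timeless protein, stood at 30.1 CPM in DR and 36.4 CPM in control cells (-0.27) and was not called. So the RORE-binding activator differed between the libraries while Nr1d2 and Arntl, members of the same loop, did not pass the rule.

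Of 20 genes that cycle in many mouse tissues, 12 were described, 4 higher and 3 lower. Called higher were Bhlhe41, Cirbp and Rbm3, of which the last pair encode cold-inducible RNA-binding proteins, and the glucocorticoid-induced Tsc22d3. Cirbp stood at 287 CPM in DR and 158 CPM in control cells, and Rbm3 at 780.2 and 503 CPM. Called lower were Wee1 (log2 ratio -0.61), Cdkn1a (-0.34) and Nampt (-0.33). Under the minimum level, Hlf at 26 UMIs in DR and 6 in control cells and Tspan4 at 104 and 97 passed the rule for higher. Glucocorticoids can set clocks in peripheral tissues, and 12 of 12 genes of a glucocorticoid-induced list that includes Per1 were described, 5 higher and 2 lower. Il7r, Cxcr4 and Pik3ip1 were higher, at log2 ratios of 0.88, 0.86 and 0.84, and Sgk1 was lower at -1.05. Il7r is also one of the immature NK markers. Per1 was not among the genes called. Of 16 immediate early genes 11 were described, with 0 higher and 5 lower, led by Nr4a1 at 5.78 CPM in DR and 11.2 CPM in control cells (-0.95), Nr4a2 (-0.94), Egr1 (-0.82) and Nr4a3 (-0.70). Genes of this list under the minimum level went both ways, with Ier3 at 140 UMIs in DR and 59 in control cells and Fosb at 131 and 65 past the rule for higher, and Egr2 at 44 and 139 and Egr3 at 73 and 259 past that for lower.

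Genes with profiles like those of Dbp and Arntl were sought over 9 combinations of class and library, which share depth and library and are not independent. Those named had the highest r among the 9010 genes described in NK-like cells, members aside. With so many genes and so few combinations, high r values can arise from this choice alone and are not evidence of shared regulation. Among the nearest to Dbp were Gm16124, Sgpp1, Hspb11 and Zfp512b, with Pearson r of log2(CPM + 1) between 0.90 and 0.93. Nearest to Arntl were Yipf2, Nkapd1, Tgfbr1, Marveld2 and Fam120b, with r between 0.95 and 0.96. Dbp and Arntl themselves had r = -0.25 over the same 9 combinations.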

How the data were processed

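Single-cell 3' RNA was measured in 1 DR and 1 control library. The matrices as deposited held raw UMI counts for each gene in each barcode. Per the file headers they came from Cell Ranger 5.0.1; the submitters' processing notes list 2.1.1 and mm10 instead, and nothing in the files decides between the versions. The members and gene lists were chosen with earlier results of these data known.

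Cells were kept from 500 detected genes upward if mitochondrial transcripts made up 10% or less. The automatic Scrublet threshold (scanpy 1.11.5) called 0 doublets in each library, so the top-scoring cells were removed down to 0.8% per 1000 cells, 335 DR and 262 control cells. Both libraries were clustered together without integration on 2000 variable genes without the members, 30 components, 15 neighbours and Leiden resolution 0.6. Clusters were named from marker lists: a class required 3 markers, 50% of the list and levels of at least 20 CPM and 25% of the top cluster. An NK stage required 60% of its list, and below 33% of the opposite list, to exceed the NK-like average. Clusters under 50 cells, of several lineages, of low depth or led by markers of another class stayed unnamed. Totals were 42134212 DR and 44526828 control UMIs. No barcode held fewer than 501 UMIs, so free RNA could not be estimated.

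UMI counts were summed per class and library and given as CPM. Intervals at 95% were exact Poisson for levels, conditional binomial for ratios, Clopper-Pearson for shares and conditional odds ratio intervals for ratios of UMI ratios (scipy 1.17.1), and cover counting error only. The call rule was run on simulated Poisson counts with known ratios. Such counts hold counting error only, so the run says nothing of variation between mice or libraries. With 1 library per group no test and no paired analysis was made. All 10 members are described; of each list, up to 4 genes with the largest absolute log2 ratio in NK-like cells are named, with the 5 genes most like Dbp and the 5 most like Arntl, of which 1 is not reported here. Further named genes were chosen after their values were seen. Gene coordinates follow GENCODE vM21 on mm10. Alternatives covered scaling, the minimum level, filters, doublets, clustering, cell selection and thinning.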

Additional observations from a re-analysis of the deposited data

Results flagged for a closer look

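Cry1 in ILC1-like cells and Arntl in B-like cells were called lower in DR, while neither was called in NK-like cells. The log2 ratio of Cry1, DR over control, was -0.81 in ILC1-like cells and 0.11 in NK-like cells, where its interval of -0.13 to 0.34 held 0. The log2 ratio of Arntl was -0.89 in B-like cells and 0.18 in NK-like cells, with an interval of -0.01 to 0.36. Each class had 1 library per group, and the differences between classes were not tested.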

How the results depend on the processing

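With no replicates, 1 library cannot be left out, and no paired analysis was possible because each group has a single library. In NK-like cells, 0 members were called lower under every alternative run, and 0 higher except for Cry2, which made the count 1 with median-of-ratios scaling, with totals free of ribosomal, mitochondrial and immunoglobulin genes, and with doublets kept. Its log2 ratio ranged from 0.18 to 0.39 over 14 alternatives. Median-of-ratios scaling moved all log2 ratios by under 0.1. The log2 output to activator ratio of NK-like cells, 0.01, was -0.18 with each cell thinned to 2000 UMIs (interval -0.49 to 0.12) and stayed within its counting interval under the other alternatives. Alternatives for other classes were added after the data were seen. There the ILC1-like log2 ratio of 0.84 was 0.63 without cells with T cell marker UMIs, and the B-like one of 0.92 was 0.55 at a limit of 5% mitochondrial UMIs, each with an interval that held 0; the cause was not tested. Per3 and Nr1d2 were called lower in immature-like than in mature-like NK cells in both libraries under all 4 alternatives run. Nr1d1 was too sparse for a ratio under thinning and is left out.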
